A study of Mus musculus with 2 samples.

Results

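Keratins are the intermediate filament proteins of epithelial cells, and 7 keratin genes of lung epithelium are described here: Krt7, Krt8, Krt18 and Krt19 of simple epithelia and Krt5, Krt14 and Krt15 of basal cells. They were chosen by symbol, from the probe sets (groups of probes summarised to 1 value) to which the platform annotation gives exactly 1 gene symbol. All 7 were found, each read by 1 probe set, among 19938 genes named in this way. RNA came from lungs of mouse embryos at E13.5, a stage when the airways are still branching. The first group was wild type, also called control in the labels, and the second was knockout for the genes Etv4 and Etv5. Both encode ETS transcription factors that respond to fibroblast growth factor in the lung epithelium. Another label of the second group reads Etv CKO, and no Cre line, strain, deleted exon or sex of the embryos is given in the sources used here. Within each group the RNA of 3 samples was combined and read on 1 Affymetrix array, so each value below stands for 1 pool, no error between embryos could be computed and no test across samples was run.

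Keratin filaments are built from obligate pairs of a type I and a type II chain. Krt8 (type II) and Krt18 (type I) form the pair that appears earliest in embryonic epithelia and are made throughout the lung epithelium. Krt7 (type II) and Krt19 (type I) join them in simple and ductal epithelia, and Krt19 is also made by the mesothelium that covers the lung. Krt5 (type II) and Krt14 (type I) are the pair of basal cells, the stem cells of the trachea and large airways, and Krt15 (type I) is found in the same layer. The filaments are anchored at desmosomes and hemidesmosomes by plakins and armadillo proteins.

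Krt8 and Krt18 are neighbours on chromosome 15, where the RefSeq table of the assembly GRCm38.p6 has 0 protein-coding genes between them. Krt18 thus lies in the type II cluster, with Krt7 and Krt5, although it encodes a type I chain. Krt19, Krt14 and Krt15 lie in the type I cluster on chromosome 11. The 250 bases before the annotated start of the 3 simple epithelial keratins for which RefSeq promoter sequence was given are shown because the missing factors bind DNA at sites with the core GGAA. The windows, in GRCm38.p6, are Krt7 (chr15:101412153-101412402, forward strand), Krt8 (chr15:102004343-102004592, reverse strand) and Krt18 (chr15:102027966-102028215, forward strand). Capitals mark AGGAAG, the letters of the classic PEA3 site after which the family of Etv4 and Etv5 is named, or its reverse complement.
Krt7: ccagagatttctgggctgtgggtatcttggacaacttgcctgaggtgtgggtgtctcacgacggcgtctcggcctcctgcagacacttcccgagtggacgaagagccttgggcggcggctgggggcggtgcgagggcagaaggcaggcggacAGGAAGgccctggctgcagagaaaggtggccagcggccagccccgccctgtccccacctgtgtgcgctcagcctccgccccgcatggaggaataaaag
Krt8: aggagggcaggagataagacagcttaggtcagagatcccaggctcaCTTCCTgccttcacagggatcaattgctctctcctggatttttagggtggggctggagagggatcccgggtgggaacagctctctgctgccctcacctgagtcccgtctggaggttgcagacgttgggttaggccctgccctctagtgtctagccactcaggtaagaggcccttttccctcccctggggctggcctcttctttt
Krt18: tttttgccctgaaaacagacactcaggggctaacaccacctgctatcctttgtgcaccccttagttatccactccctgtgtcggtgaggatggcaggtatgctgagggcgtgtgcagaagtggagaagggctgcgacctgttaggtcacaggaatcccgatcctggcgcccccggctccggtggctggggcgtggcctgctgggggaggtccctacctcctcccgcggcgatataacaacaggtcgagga

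On both strands, AGGAAG was found in 2 of 5 keratin windows. These were Krt7 at 98 bases and Krt8 at 204 bases before the start, and 29.2% of 27025 RefSeq promoters of the same length held it. The core GGAA, which overlaps AGGAAG, was in 5 of 5 windows and in 93.4% of all promoters. The longer ETS letters CCGGAA were in the Krt14 window only among the 5, and in 12.2% of all promoters. The GC box letters GGGCGG were found in the Krt7 window only (32.9% of all promoters). The letters CACCC, which Krüppel-like factors recognise, were in 5 of 5 (51.3% of all promoters). These are matches of letters and not measured binding.

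The deposited values were read as log2 values from their range, since the scale was not stated in the sources used here, and differences are knockout minus wild type. The array medians were 7.60 in wild type and 7.58 in knockout. A gene counted as measured when its brighter value reached the median of that array, which held for 11045 of 19938 genes. Of the genes in the lists below, Perp, Elf3, Lamp3 and Nefh reached the median on the knockout array alone, as did the keratin Krt34. In the counts below, higher, lower and equal give the sign of a gene's difference as deposited, with no test, and a gene is said to have passed 1.2-fold when the difference reached 0.26 on the log2 scale in the direction named. By sign alone, 25.7% of measured genes were higher and 47.0% lower, against which the counts of each list are to be read. That balance is set by small differences and turned with scaling: 2836 higher and 5193 lower as deposited became 6713 and 4344 with equal medians, 6922 and 4114 with quantile and 6170 and 4873 with loess scaling. On both arrays the probe sets of the lung and epithelial genes Nkx2-1 (10.58 and 10.70), Epcam (10.38 and 10.47) and Cdh1 (10.38 and 10.57) lay above the median. Of the targeted genes, Etv5 read 11.51 in wild type and 11.28 in knockout, and Etv4 read 7.59 and 6.96, both under the array medians. The probe sets may lie outside the deleted parts, which the labels do not give. Sex-linked genes differed between the arrays, with Xist at 12.34 and 5.74. Eif2s3y, Kdm5d and Uty of the Y chromosome read 9.90, 9.05 and 8.99 in wild type and were higher in knockout by 0.53 to 0.64. With 1 pool per group, the sex makeup of the pools cannot be told apart from the knockout. The part of sex makeup in the keratin values was not tested.

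All 4 simple epithelial keratins had higher values in the knockout pool, and 3 of them passed 1.2-fold. Among all measured genes, 1.39% passed it upward and 1.53% downward, and the median difference was 0.00 against 0.39 for these 4 keratins. Each of the 4 lay well above the median on both arrays, so none counted as measured through the knockout array alone. Krt18, the type I partner of Krt8, read 9.90 on the wild type array and 10.37 on the knockout array, which differ by 0.47 (1.39-fold). Krt19, the small type I keratin of ducts and mesothelium, read 9.36 and 9.80, a difference of 0.45 (1.36-fold). Krt8, the type II partner, read 11.34 and 11.67, a difference of 0.33 (1.26-fold). The fourth, Krt7, stayed just under the threshold, at 9.88 and 10.13, a difference of 0.25 (1.19-fold). In a whole lung, more keratin RNA per cell and more cells that make keratin give the same reading and cannot be told apart.

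**Figure D1:**
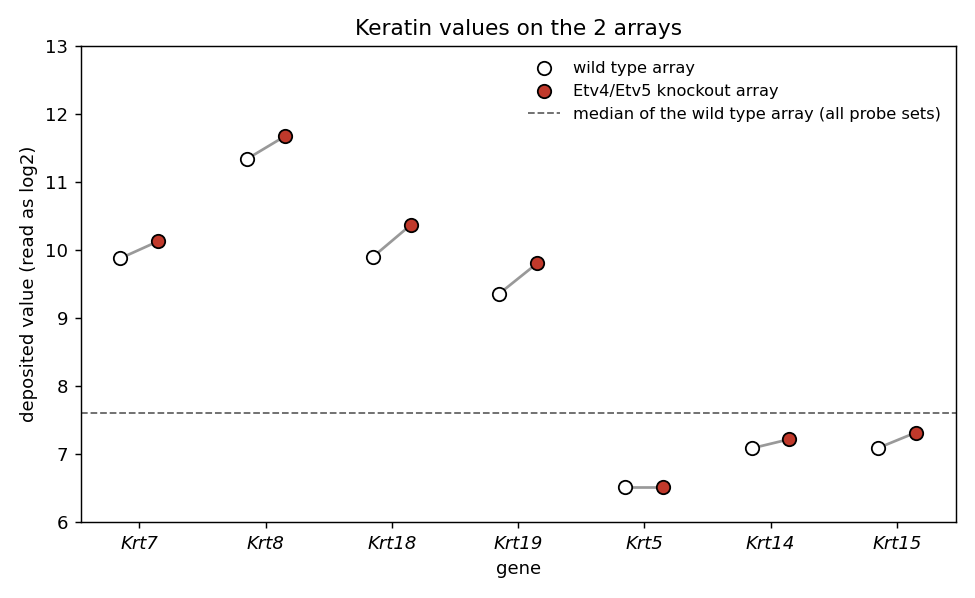
Deposited values (read as log2) of the 7 keratin genes on the wild type array (open points) and the knockout array (filled points), 1 array per group, joined per gene. The dashed line is the wild type array median of 7.60. Krt7, Krt8, Krt18 and Krt19 lie above it with the knockout point higher, and Krt5, Krt14 and Krt15 lie below it.

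The differences of the 4 simple keratins lay between 0.25 and 0.47. Krt18 exceeded Krt8 by 0.14 and Krt19 exceeded Krt8 by 0.11 on the log2 difference, while Krt18 and Krt19 were within 0.02 of each other. Krt7 was lowest, 0.08 under Krt8 and 0.22 under Krt18. For scale, the 777 genes read by 2 probe sets had a median gap of 0.04 between the differences of their probe sets, with a 90th percentile of 0.20. The gap between Krt18 and Krt8 thus lies above that median but under the 90th percentile. The gap of 0.22 between Krt18 and Krt7 lies past the 90th percentile. These 777 genes are of all levels, dim ones included. No order among the 4 genes is read from these gaps.

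The simple keratins ranked near the upper end of all measured genes. Of 11045 measured genes, 35 had a difference at or above that of Krt18, itself included, 38 at or above that of Krt19, 84 at or above that of Krt8 and 171 at or above that of Krt7. As shares these are 0.317%, 0.344%, 0.761% and 1.55%. Set against genes of like level (a mean of both arrays within 0.5 of the keratin's own), 0 of 858 other genes reached the difference of Krt8. The same count was 7 of 2707 for Krt18, 9 of 3181 for Krt19 and 25 of 2897 for Krt7. Krt8 has the smaller difference of the Krt8 and Krt18 pair, but none of the other genes of its bright level reached it upward. Downward differences at that level were not counted.

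**Figure D2:**
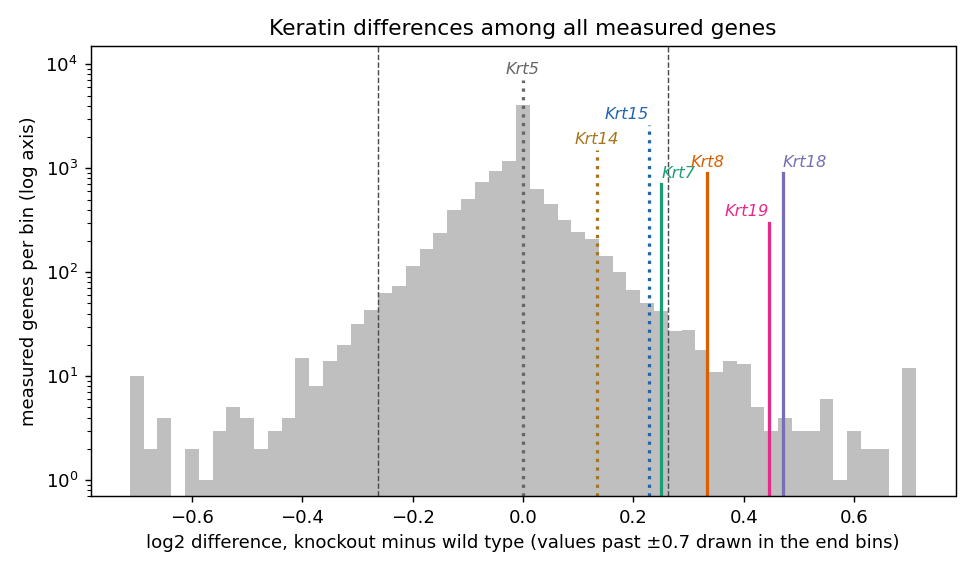
Histogram of log2 differences (knockout minus wild type) of the 11045 measured genes, with a log count axis and values past 0.7 in either direction drawn in the end bins. Vertical lines mark the 7 keratins, solid for simple epithelial and dotted for basal keratins under the level limit, and dashed lines mark 1.2-fold. Krt8, Krt19 and Krt18 lie right of the upper dashed line and Krt7 just left of it.

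The basal keratins were dim on both arrays, and 0 of 3 counted as measured. Krt5 read 6.51 on both arrays, with exactly equal deposited values, as did 41.1% of the 8893 genes under the level limit. Krt14, its type I partner, read 7.09 and 7.22, a difference of 0.13. Krt15 read 7.09 and 7.32, a difference of 0.23, which is under 1.2-fold. Among genes of like level, 16.0% had a difference at or above that of Krt14 and 5.24% at or above that of Krt15. These values are near those of many other dim genes, and 3.22% of genes under the level limit were higher by 1.2-fold or more.

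Genes of basal cells other than keratins gave no common direction. Trp63, the transcription factor that defines basal cells, was also under the level limit, at 7.22 and 7.36. The water channel gene Aqp3 read 6.77 and 6.85. The 4 measured members of the basal cell list were Ngfr (-0.10), Snai2 (-0.11), Bcam (0.02) and Dlk2 (equal on both arrays), with a list median of -0.05. Ngfr and Snai2 are also made by nerve and mesenchymal cells, so in whole lung they do not mark basal cells alone. Markers of squamous epithelium, such as Krt1, Krt4 and Krt13, were under the level limit for all 12 matched genes. Of these 4 were higher, 1 was lower and 7 had equal values.

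The rest of the keratin family was dim. Besides the 7 genes, 45 keratin genes had a probe set with 1 symbol, 24 in the chromosome 11 cluster and 21 in the chromosome 15 cluster, and 3 of them counted as measured. These were the hair keratins Krt34 (7.49 and 7.68, a difference of 0.19), Krt87 (7.87 and 7.95, 0.08) and Krt33b (8.35 and 8.36, 0.01). As deposited, none of the 45 passed 1.2-fold in either direction. The largest difference was 0.25, for Krt31 at a dim level (6.04 and 6.29), named after its value was seen, and with equal medians 1 of the 45 passed. Hair keratin genes are close to each other in sequence, and cross-hybridisation among them was not tested.

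Among the 42 other keratins under the level limit, 23 were higher, 3 lower and 16 equal. The 3 lower genes, named after their values were seen, were Krt4 (-0.13), Krt76 (-0.04) and Krt39 (-0.03). Of all genes under the level limit 42.9% were higher and 16.0% lower as deposited. Both balances depended on scaling. For the 45 genes there were 26 higher and 3 lower as deposited. These became 42 and 3 with equal medians, 29 and 14 with quantile scaling and 25 and 20 after loess. All genes under the limit had 3817 higher and 1421 lower as deposited. In the same order, these became 7611 and 1269, 4497 and 3741, and 3510 and 5385. The median of the 45 other keratins stayed between 0.01 and 0.04 under the 3 other scalings. The 4 simple keratins had differences of 0.25 to 0.47, against at most 0.19 in the 3 other measured keratins. The 0.19 is that of Krt34, which counted as measured through the knockout array alone.

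**Figure D3:**
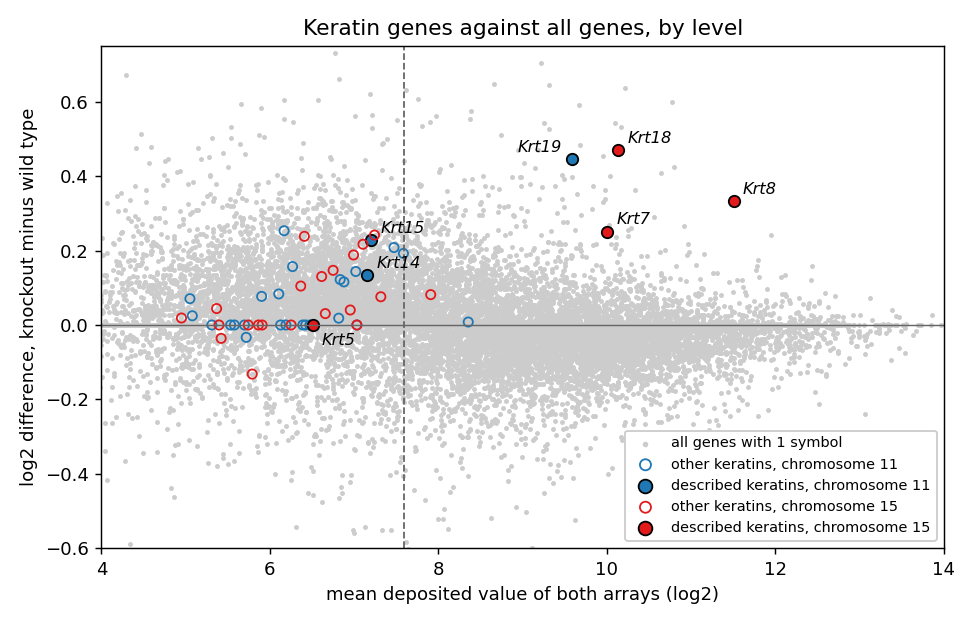
Log2 difference (knockout minus wild type) against the mean value of both arrays for all genes with 1 symbol (grey) and the keratin genes, open for the 45 others and filled for the 7 described, coloured by chromosome. The dashed vertical line is the mean of the array medians. Krt7, Krt8, Krt18 and Krt19 stand to the right of it and above most genes of their level, and nearly all other keratins lie to the left, under the level limit.

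Etv4 lies on chromosome 11, as the type I keratin cluster does. RefSeq places 69 protein-coding genes between Krt19 and Etv4, and 41 genes in that interval were measured here. Of these 16 were higher, 18 lower and 7 equal, with a median of 0.00. The extremes, named after their values were seen, were Hap1 (0.39) and Rdm1 (0.28) above 1.2-fold and Coa3 (-0.40) below it. Krt19, at 0.45, exceeded all 41. Krt8, Krt18 and Krt7 are on chromosome 15, which carries neither targeted gene, since Etv5 is on chromosome 16. Whether sequence linked to the Etv4 allele takes part in the Krt19 value was not tested.

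Of the genes whose proteins tie keratin filaments to cell junctions, 2 passed 1.2-fold upward and 0 downward. The shares over all measured genes were 1.39% and 1.53%. Of 20 such junction genes 15 were measured: 10 were higher by sign, 3 lower and 2 equal, with a median of 0.10 against 0.00 for all measured genes. With equal medians 3 passed. The 2 that passed as deposited were Pkp2, a desmosomal plakophilin (7.93 and 8.23, a difference of 0.30), and Ppl, the plakin periplakin (7.81 and 8.09, 0.27). Dsp, which encodes desmoplakin, the plakin that binds keratin at desmosomes, read 9.25 and 9.47, a difference of 0.22. Among the others, Perp differed by 0.25, Eppk1 by 0.20, Jup by 0.16 and Dsg2 by 0.12.

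The hemidesmosome genes did not share this direction. The integrin genes Itga6 and Itgb4 differed by -0.03 and 0, and the linkers Plec and Dst by 0.02 and -0.06. The only junction partner lower by more than 0.1 was Tchp, which encodes the keratin-binding protein trichoplein (-0.18). None of the 15 reached the difference of Krt8, Krt18 or Krt19, and only Pkp2 and Ppl reached that of Krt7. Perp, at 1.1899-fold, lay just under the 1.19-fold of Krt7. Perp (7.59 and 7.84) also counted as measured through the knockout array alone.

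Transcription factors known to act on keratin or epithelial genes were mixed. Of 14 listed 8 were measured, 3 higher, 2 lower and 3 equal, with a median of 0.00. Klf5, a Krüppel-like factor of airway epithelium, read 9.38 and 9.78, a difference of 0.40, and as deposited was the only one past 1.2-fold, while 2 passed with equal medians and with quantile scaling. The epithelial ETS factor gene Elf3 differed by 0.26, just under the threshold, and Grhl3 by 0.20, while Ovol2 and Elf5 differed by -0.07 each. Grhl2, Klf4 and Gata3 were equal on both arrays. Of the other intermediate filament genes, nuclear lamins included, 5 of 8 measured genes were lower by sign, 2 higher and 1 equal (median -0.06), and 1 passed 1.2-fold, downward. Synm, the muscle filament gene synemin, read 8.22 and 7.81 (-0.41), Des, desmin of muscle, differed by -0.21, Nes by -0.21 and Vim, the filament of mesenchyme, by -0.08. The lamin genes Lmna, Lmnb1 and Lmnb2 differed by 0.12, -0.04 and 0.

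Of 25 matched genes shared by lung epithelium, all measured, 1 passed 1.2-fold upward and 1 downward as deposited. By sign 20 were higher, 3 lower and 2 equal, with a median of 0.10 against 0.00 for all measured genes, and 21 to 23 were higher under the 3 other scalings. Rab25 (9.26 and 9.56, a difference of 0.30) passed 1.2-fold upward and Cldn18, a claudin of lung epithelium, passed it downward (11.15 and 10.88, -0.27). Under each of the 3 other scalings 2 of the 25 passed upward and 0 downward, so the call of Cldn18 was lost. The markers Epcam, Nkx2-1 and Cdh1 differed by 0.09, 0.12 and 0.19. None of the 25 reached the difference of Krt8, Krt18 or Krt19, and 2 (Rab25 and Spint1) reached that of Krt7. The 4 keratins lay 0.15 to 0.37 above the median of this list.

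Of the proximal airway genes, 12 in the list, 6 were measured and 2 passed 1.2-fold upward, Aldh1a7 (0.41) and Klf5 (0.40). Of all measured genes 1.39% passed it upward. Klf5 is in the list of transcription factors too, so the same value gives a call in both. All 6 measured proximal genes were higher by sign, with a median of 0.10, and Sox2, the factor of proximal epithelium, differed by 0.07. The distal tip list holds surfactant and lamellar body genes, such as Sftpb and Lamp3, beside factors of tip progenitors, such as Sox9 and Id2. It went both ways, with 3 of 11 measured genes past 1.2-fold upward and 4 downward (3 downward under each of the 3 other scalings). Upward were Sftpb (1.91), Lamp3 (1.42) and Ctsh (0.43), and downward were Sftpc (-1.12), Sox9 (-0.32), Id2 (-0.31) and Muc1 (-0.27). Lamp3 (6.71 and 8.13) counted as measured through the knockout array alone. Of the remaining measured genes, Etv5 (-0.23) and Sox11 (-0.18) were lower, Mycn (0.09) was higher and Bmp4 was equal. Etv5 is itself a targeted gene and is counted in this list. The list had 4 higher, 6 lower and 1 equal by sign and a median of -0.18, while its mean level over the 12 matched genes was 9.77 in wild type and 9.90 in knockout.

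Markers of the mesothelium, the other tissue of the lung that makes Krt19, Krt8 and Krt18, had a median near 0. The mesothelial list had 9 measured genes, 4 with higher, 2 with lower and 3 with equal values, a median of 0.00 and 0 past 1.2-fold. Under each of the 3 other scalings 7 were higher and 2 lower, with 0 past 1.2-fold. Of the defining markers, Wt1 read 8.74 on both arrays, Upk3b 10.22 and 10.13, and Msln, under the level limit, 6.57 and 6.70. Bnc1 was the highest of the list at 0.20. Gpm6a (0.12), Lrrn4 (0.06) and Upk1b (0.05) were also higher, Podxl (-0.10) was lower, and Rspo1 and Aldh1a2 were equal. The part of the mesothelium in the keratin values was not tested. The mean level of the 11 matched genes was 8.85 in wild type and 8.88 in knockout.

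Lists of cell types that do not make these keratins were read in the same way. Smooth muscle genes had a median of -0.22 (12 measured, 10 lower, 1 higher, 1 equal), mesenchyme genes -0.07 (14 measured, 11 lower, 2 higher, 1 equal), endothelial genes -0.02 (14 measured, 10 lower, 2 higher, 2 equal) and erythroid genes -0.24 (4 measured, all lower as deposited and 3 lower with quantile scaling). The endothelial counts turned with scaling, to 7 higher and 7 lower with equal medians and 6 and 8 with quantile and loess, so that list has no direction. Past 1.2-fold, 4 smooth muscle genes were lower and 0 higher, among them Synpo2 (-0.49) and Myocd (-0.39). In the mesenchyme list Fgf10 (0.40) passed upward and Foxf1 (-0.40) downward, and 0 endothelial and 0 erythroid genes passed. The part of a changed cell makeup in the keratin differences was not tested.

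**Figure D4:**
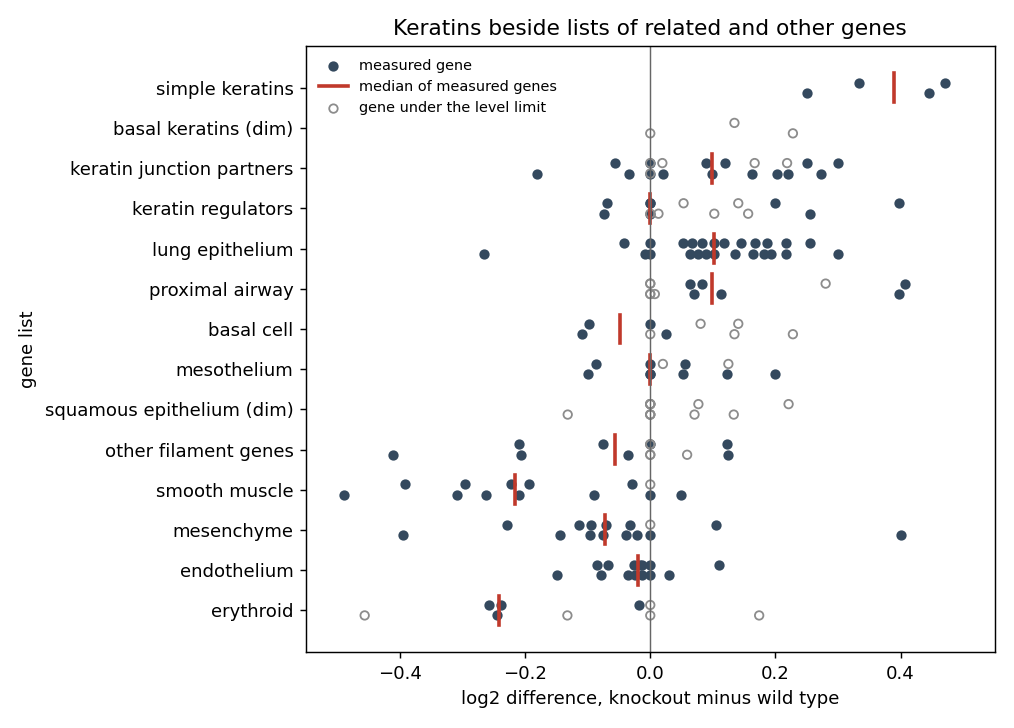
Log2 difference (knockout minus wild type) of each gene in 14 gene lists, 1 point per gene, filled where measured and open where under the level limit, with the median of measured genes as a red bar for lists with at least 3. Among the lists drawn, the simple keratins have the highest median, 0.39, against 0.10 for lung epithelium and junction partners and -0.22 for smooth muscle. The sex-linked list (median 0.53), the distal tip list and the targeted genes are not drawn.

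With 2 arrays the pattern of a gene is a pair of values, and the 3 measured genes nearest to Krt19, Krt18 and Krt8 by the distance between these pairs are given as a description. Levels of different probe sets are not comparable amounts of RNA, so closeness says only that the deposited numbers are alike. Nearest to Krt19 were Klf5 (distance 0.03), Tinag (0.12) and Vsnl1 (0.14). Nearest to Krt18 were Eif2s3y (0.07), Mt2 (0.07) and Fgf10 (0.14). For Krt8 the nearest were Rps14 (0.16), Colec12 (0.17) and Nfix (0.17), whose differences of 0.12, 0.11 and 0.09 were all smaller than the 0.33 of Krt8.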

How the data were processed

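Total RNA of lung was extracted with a column kit and labelled with biotin for Affymetrix arrays, per the labels' protocols. The authors deposited a single table with values of 35557 probe sets on each array, taken here as log2 from the range of 2.72 to 14.4. The log base, summary method and normalization are not given in the sources used here. In 28.2% of probe sets the values of both arrays were identical.

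Values were used as deposited. Of the probe sets 21789 had 1 symbol in the platform annotation, 1621 several and 12147 none. A gene was represented by its probe set with the highest mean. All 7 keratins matched the RefSeq table by gene ID, and 0 probe sets with several symbols held a keratin described here. RefSeq also lists a Krt8 pseudogene, and cross-hybridisation was not tested. Of 191 list genes 184 were matched. The members, lists, 1.2-fold threshold and alternatives were chosen with earlier results of these data known. Named genes were the 7 keratins and, per list, up to 4 measured genes past 1.2-fold or otherwise the 2 largest. All genes of the junction, basal, mesothelial, sex-linked and targeted lists could be named, as could other keratins past 1.2-fold or the 2 largest, and the nearest genes. Further genes named as markers of their list were chosen after their values were seen. The recovery of added differences and the removal of a uniform shift by the scalings were tested on simulated data. Other steps were not tested in this way. Alternatives were equal medians, quantile and loess (span 0.3) scaling, the mean over probe sets, no level filter or one at the 75th percentile, raising low values to the 25th percentile, and thresholds of 1.1-fold, 1.5-fold and 2-fold. Python 3.11.15, numpy 2.4.6, pandas 2.3.3, statsmodels 0.14.6 and matplotlib 3.10.9 were used.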

Additional observations from a re-analysis of the deposited data

How the results depend on the processing

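Leaving out an array was not possible with a single array in each group, and no paired analysis was possible because each group has 1 sample. Under the 7 alternatives of scaling, probe set, filter and floor, Krt18 lay between 0.47 and 0.49, Krt19 between 0.45 and 0.47, Krt8 between 0.33 and 0.36, Krt7 between 0.25 and 0.27, Krt15 between 0.21 and 0.25 and Krt14 between 0.12 and 0.15. Krt5 lay between -0.02 and 0.02 and has no direction. Only the 3 other scalings moved these values. Each keratin has 1 probe set, a level filter alters no difference, and the floor changed none of them. The other alternatives thus say nothing on how stable the keratin differences are. Krt7 passed 1.2-fold under each of the 3 other scalings, which made 4 keratins higher in place of 3. At 1.5-fold and at 2-fold 0 keratins were counted. Of all measured genes, 154 were higher and 169 lower. The counts were 440 and 266 with no level filter, 44 and 65 with the filter at the 75th percentile, 558 and 828 at 1.1-fold, 19 and 18 at 1.5-fold, and 6 and 4 at 2-fold. These follow from more or fewer genes or from another threshold. Equal medians moved every difference by 0.02, which also changed calls near the threshold in other lists, given beside each. Medians of the mesothelial and regulator lists, 0.00 as deposited, were up to 0.03 and 0.02 under other scalings. Dim signals limit what can be said of the basal keratins.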
